A study of Glycine max with 12 samples.

Results

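Of the 42748 soybean probes on the array that are not controls, 130 gave a signal that was at least 4-fold lower in nodules after 24 h of nitrate and a signal in roots that stayed within 2-fold of the control. They were selected on measured values, by a rule with 4 parts. The mean log2 signal of the nitrate-treated nodules had to be 2 or more below that of the control nodules, and every nitrate-treated nodule array had to lie below every control nodule array. Each of the 3 control nodule arrays had to read the probe as well above background, and the mean log2 signal of the roots had to change by no more than 1 in either direction. One asparaginase probe that met all parts was left out by the rule. Both nitrate contrasts therefore chose the members, and their values are given below as a description, without a test.

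The samples came from Glycine max cv. Nourin No.2 inoculated with Bradyrhizobium diazoefficiens USDA110 and grown hydroponically without added nitrogen. From 19 days after planting the plants received 5 mM nitrate or stayed N-free, and after 24 h the roots and nodules of each were taken as separate samples. The 4 groups, roots and nodules each with and without nitrate, had 3 samples apiece, every sample being RNA pooled from 3 plants and hybridized to 1 single-colour array. The roots were the part without visible nodules, and the nodules were those above 3 mm, and every group carried the same cultivar and the same inoculant. By the labels the groups differed in organ and nitrate, and they also differed in the slides their arrays lay on. A sample is a mixture of cell types, so fewer cells of a type and less RNA per cell cannot be told apart in any value below.

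The legume nodule is an organ in which rhizobia live inside plant cells and fix nitrogen in return for carbon from the host. Nitrate supplied to the root is known to slow nodule growth and nitrogen fixation in soybean, and enlargement of the infected cells requires new cell wall, new membrane and transport across both. The probes are 60-mer oligonucleotides named after soybean cDNA sequences. Descriptions were read here for 110 of the 130 members from the study's own lists of probes that nitrate changed on these arrays, and 20 members had none. Of the described members, 45 fell under 14 of the 16 role lists used here, and the other 65 were described by a cDNA or genomic clone or by a function outside the lists. Role counts over the whole array could not be made from these descriptions, so nothing is read from the sizes of the role groups. None of the 130 probe names could be matched to the soybean gene table, so no gene identifier or position is given.

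Signals are log2 values after each array was scaled to a mean of 2500, so a difference of 1 is a 2-fold difference, and levels of different probes are not compared with each other. Before scaling, the mean signal of the arrays ranged from 2711 to 4593, and each array read 79.2% to 84.5% of its probes as well above background. No spot of a member was marked as an outlier. The 12 arrays lay on 3 slides. One slide carried all control nodule arrays and nitrate-treated nodule array 3, another carried nitrate-treated nodule arrays 1 and 2 with control root arrays 2 and 3, and the last carried control root array 1 with all nitrate-treated root arrays. As a check of the nitrate supply, 3 probes described as nitrate reductase were higher by 6.16 to 6.83 in nitrate-treated roots and by 0.36 to 0.42 in nitrate-treated nodules. Nitrite reductase probes were higher by 7.79 to 10.41 in roots and by 0.10 to 0.31 in nodules. Asparagine synthetase probes were higher by 2.40 to 3.30 in roots and by 1.58 to 2.18 in nodules, except CO979767.1_615. That probe changed by -0.07 in roots and by -1.61 in nodules. These probes come from lists the study chose on the same arrays. No description read here named leghemoglobin or uricase, so the nodule samples were not checked here against those markers. The study itself reports a much higher leghemoglobin signal in control nodules than in control roots. Of 10 other probes described as nodulins or nodulin-like, 8 were lower in control nodules than in control roots, and the differences ran from -8.58 to 1.35. These probes too were described because nitrate changed them, and several are named only by likeness to a nodulin, so they do not define the organ.

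The 130 members differed between nitrate-treated and control nodules by a median of -2.28, from -4.81 to -2.0, where the 35027 probes well above background on all control nodule arrays had a median of -0.08. The fall reached -3 in 15 members and -4 in 3, and 91 members lay between -2.5 and -2. In roots the median change of the members was -0.01, from -0.99 to 0.95, and 78 members lay within 0.5 of 0. The root change was negative in 67 members and positive in 63. In 118 members the nitrate-treated and control root arrays overlapped, in 9 all the nitrate-treated root arrays lay above the controls, and in 3 all lay below. The same was not counted over all probes, so nothing is read from these numbers. For description only, since the rule used these arrays, limma's calls at an adjusted p under 0.05 and a 2-fold change covered 130 of the 130 members in nodules, against 5.44% of all probes tested that were lowered. With normexp background correction 78 of the 130 were called, and the share over all probes was not counted in that setting. In roots limma called 0 of the 106 members tested, against 0.851% of all probes raised and 1.7% lowered. At an unadjusted p under 0.05 without a fold limit 6 of the 106 members differed in roots, and the unpaired test of the methods called 0. The shares over all probes were not counted for these settings. The rule kept the root changes within 2-fold and a call needs more than that, so 0 calls in roots had to come out. Nothing is read from any of these counts.

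**Figure D1:**
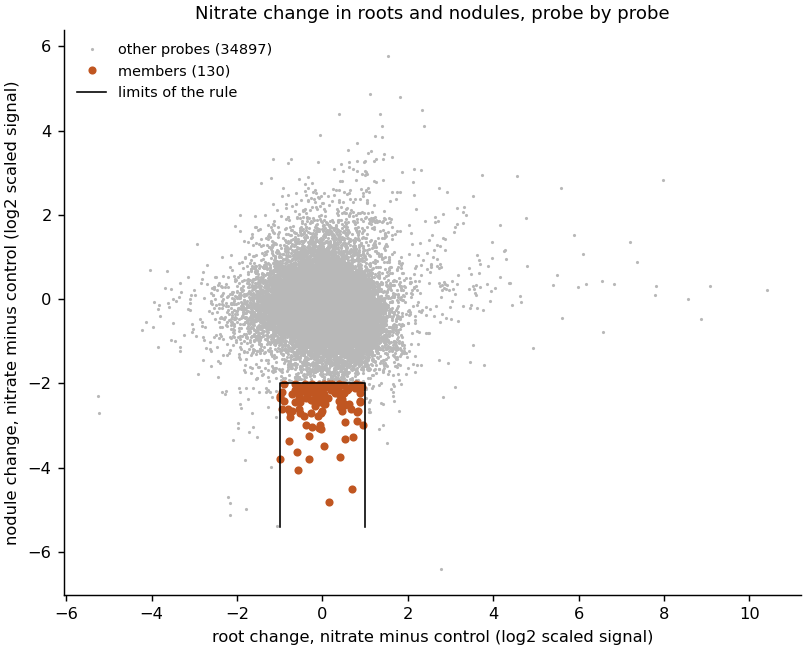
Change of each probe with nitrate in roots (x axis) and in nodules (y axis), as log2 scaled signal, nitrate minus control, mean of 3 arrays against 3. The 130 members (orange) fill the area inside the black limits, between -1 and 1 in roots and at or below -2 in nodules, and the grey points are the other probes read as well above background on all control nodule arrays.

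The limits of the rule cut through a continuous range. In all, 215 probes had a nodule change of -2 or less. Of these, 62 failed only the limit on roots, 7 had overlapping nodule arrays and 20 were not well above background on all control nodule arrays. The root change was below -1 in 39 of the 215 and above 1 in 31. The members closest to the nodule limit were CX704817.1_812, described as a Myb transcription factor, at -2.0, and GMFL01-36-E03-R_157, a soybean cDNA clone, at -2.01. GMFL01-36-E03-R_157 was not well above background on any nitrate-treated nodule array, so its fall is known only as at least 1.85-fold. Just outside were GMFL01-21-A22-R_353, matched to a Lotus genomic clone, and BU765258.1_521, described as an AX110P-like protein, at -1.997 and -1.995.

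Many members were close to background once nitrate had been given. Of the 130, 68 were still well above background on all 3 nitrate-treated nodule arrays, 19 on 2 arrays, 10 on 1 array and 33 on none. For those 33 the size of the fall is known only as a lower bound. It was taken from the mean of the control nodules and, on each nitrate-treated nodule array, either the probe's own signal or the lowest signal that counted as well above background there, whichever was larger. These bounds ran from 1.43-fold to 7.87-fold with a median of 2.5-fold, and 32 of the 33 were under 4-fold. With those members at their bound, the median change of all members was -2.14 in place of -2.28. Members read on all nitrate-treated nodule arrays had a median change of -2.17.

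The third nitrate-treated nodule array gave the lowest values. Measured against the mean of the control nodules, the median of the members was -1.93 on the first nitrate-treated array, -1.94 on the second and -3.05 on the third. The third array was the lowest of its group in 113 of the 130 members (86.9%), against 44.6% of all probes well above background in control nodules. It was also the nitrate-treated array on the slide of the control nodules, so -3.05 is the change within that slide. On their own, the first array was at or below -2 in 58 members, the second in 60 and the third in 129. Without the third array the rule gave 64 probes, of which 59 were among the 130, and the median change of the 130 members was -1.92. Without the first or the second nitrate-treated array it gave 211 or 200. The gap between the lowest control nodule array and the highest nitrate-treated one had a median of 1.58 over the members, from 0.62 to 3.20, and was under 1 in 5 of them. The median SD between arrays was 0.19 in control nodules and 0.66 after nitrate. The control nodule arrays shared a slide and the nitrate-treated ones did not, so slide and nitrate cannot be told apart in this spread. The same SD was not taken over all probes.

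Among the roots, the second control array stood below the others. It was the lowest of the control root arrays in 100 members (76.9%), as it was in 68.6% of all probes well above background in control nodules. The median of the members was -0.64 relative to the mean of the control roots on that array, against 0.39 and 0.33 on control arrays 1 and 3. It was -0.01, -0.12 and 0.16 on the nitrate-treated root arrays. Without the second control root array, 4 members were called lowered in roots by limma. They were BM527612.1_396, a mitochondrial carrier protein, at -1.39, CX710058.1_527, a soybean cDNA clone, at -1.17, CX706335.1_589, another such clone, at -1.09 and GMFL01-39-E13-R_459, a glycosyltransferase, at -1.08. Without the first control root array 1 member was called lowered, AW348225.1_376, a cDNA clone, at -1.09. These 5 were named because their calls changed and not by the rule for named probes, apart from the carrier and the glycosyltransferase. The shares over all probes without these arrays were not counted, so nothing is read from the numbers called.

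**Figure D2:**
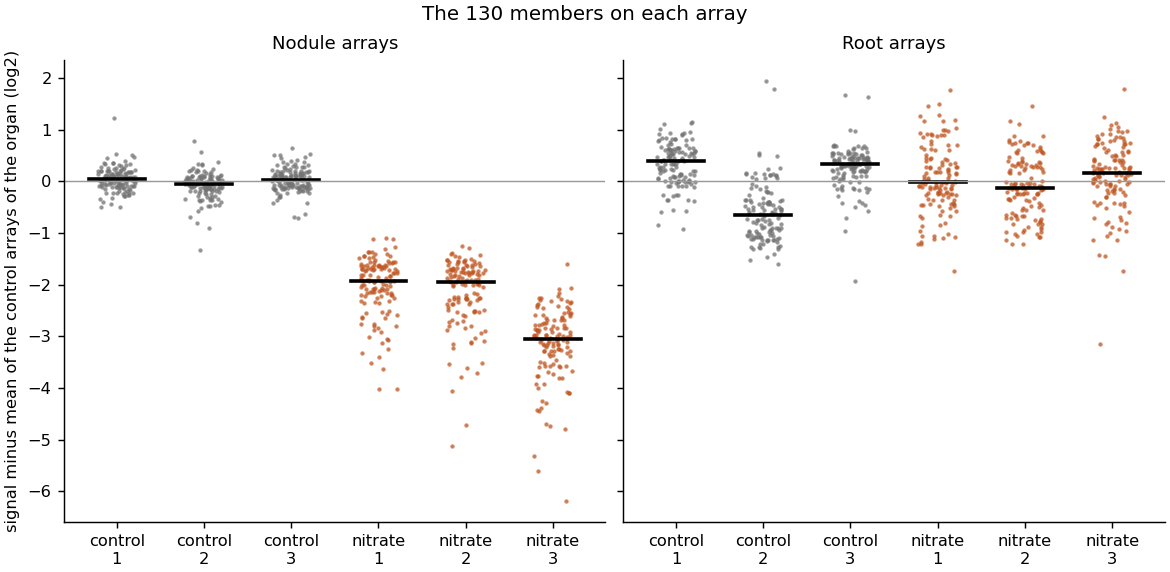
Signal of the 130 members on each of the 12 arrays, as the log2 difference from the mean of the 3 control arrays of the same organ, with the median as a black bar. On the nodule arrays (left) the medians of the nitrate-treated arrays were -1.93, -1.94 and -3.05, and on the root arrays (right) the second control array had the lowest median, -0.64.

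The member with the largest fall was BE822299.1_99, which has no description. Its signal was 10.45, 9.35 and 10.69 in control nodules and 6.15, 5.04 and 4.85 after nitrate, a change of -4.81 or 28.1-fold. In roots it read 11.46, 9.43 and 10.76 without nitrate and 10.57, 10.47 and 11.06 with it. The nitrate-treated nodules were thus the lowest of the 4 groups, and the other 3 groups overlapped.

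BE608447.1_1, also without a description, gave 6.48, 5.12 and 6.48 on the control nodule arrays and 2.01, 1.30 and 1.23 under nitrate. None of the last 3 was well above background, so the fall was at least 7.87-fold, with a change in measured means of -4.51. BU550052.1_116, a soybean cDNA clone, read 10.57 to 11.05 in control nodules and 7.48, 6.82 and 6.18 with nitrate, a 16.6-fold fall. The roots read 7.51 to 8.01 without nitrate and 6.69 to 7.74 with it, so the nitrate-treated nodules overlapped the nitrate-treated roots and lay below the control roots. CX705392.1_826, which matches a rice cDNA clone, went from 12.91, 12.35 and 12.88 to 9.40, 9.11 and 8.27, a 13.8-fold fall. Its root change of -0.98 was close to the limit of the rule. The root arrays read 10.66, 9.92 and 11.03 in controls and 10.46, 9.40 and 8.80 under nitrate, so they overlapped.

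Cell wall enzymes made up 7 of the described members, with nodule changes from -3.80 to -2.05 and a median of -2.15. The largest fall among them was that of AW459363.1_318, described as a xyloglucan:xyloglucosyl transferase, an enzyme that cuts and rejoins the xyloglucan chains that tie cellulose together. It read 7.40, 7.44 and 7.69 in control nodules and 4.87, 4.37 and 1.91 with nitrate, a 13.9-fold fall, and the array at 1.91 was not well above background. The difference between the third array and the other nitrate-treated arrays was larger in this probe than the spread of the controls.

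Both probes described as endo-1,3-beta-glucanase, an enzyme that breaks down callose, were among these members. GMFL01-08-A24-R_263 read 12.38, 12.32 and 12.66 in control nodules and 10.36, 9.95 and 9.10 under nitrate. AW831558.1_336 read 10.38, 10.28 and 10.56 in control nodules and 8.48, 8.58 and 7.72 under nitrate. In roots the means of these probes under nitrate were above those of the controls, by 0.82 and 0.58, with overlapping arrays. The pectin enzymes were BE806065.1_221, a pectate lyase, which cleaves pectin, and CX704198.1_906, a pectin methylesterase, which removes its methyl groups, with nodule changes of -2.22 and -2.11. For each of these pectin probes only 2 of the nitrate-treated nodule arrays were well above background. GMFL01-01-O06-F_374, described as UDP-glucose dehydrogenase, which makes the UDP-glucuronic acid used for wall polysaccharides, changed by -2.11, and AW185744.1_432, a beta-galactosidase, by -2.05. No nitrate-treated nodule array read the beta-galactosidase probe as well above background, so its fall is known only as at least 3.08-fold. Root changes over the 7 ran from -0.31 to 0.82, with a median of 0.58.

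Glycosyltransferases, which join sugars to small molecules or to other sugars, also numbered 7, with nodule changes from -2.34 to -2.05. The 4 with the largest fall were BM732920.1_385 at -2.34, CX704751.1_854 at -2.33, GMFL01-39-E13-R_459 at -2.25 and BF324339.1_154 at -2.17. CX704751.1_854, described as a glucosyltransferase of azuki bean, read 13.67, 13.36 and 13.33 in control nodules and 11.89, 11.75 and 9.73 after nitrate. As in the other 3, the first and second nitrate-treated arrays lay close together and the third lay below them by more than 1.

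Protein kinases, receptors and small signalling proteins were the largest role group, with 9 members and changes from -3.31 to -2.08. CD486977.1_626, described as a serine/threonine protein kinase, read 4.85, 4.85 and 4.98 in control nodules and 1.39, 1.78 and 1.58 after nitrate, which were not well above background, so the fall was at least 3.59-fold. BM091668.1_506 is described as RAC2 of Lotus japonicus, a small GTP-binding protein of the family that acts in polar growth. It read 8.32, 8.37 and 8.6 in control nodules and 5.42, 5.62 and 4.52 with nitrate, a 9.48-fold fall. Its roots read 8.91, 7.46 and 8.48 without nitrate and 7.82, 7.87 and 8.24 with it, so the control roots overlapped both the control nodules and the nitrate-treated roots, and the nitrate-treated nodules stood below all other arrays. AW598384.1_293, a leucine-rich repeat protein, changed by -2.68, and CD400087.1_483, a further putative kinase, by -2.49. Only 1 of the nitrate-treated nodule arrays was well above background for AW598384.1_293, and 2 were for CD400087.1_483.

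The lipid group held AW394756.1_284 and BI315627.1_348. The first is described as a microsomal omega-3 fatty acid desaturase, which turns linoleic into linolenic acid in membrane lipids. It read 7.37, 7.14 and 7.24 in control nodules and 5.12, 4.76 and 3.16 under nitrate, a change of -2.90. The other, a phospholipase A2, which releases fatty acids from phospholipids, read 5.70, 6.05 and 6.30 and then 4.11, 3.74 and 2.24, a change of -2.65. In both, 1 of the nitrate-treated arrays was not well above background.

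Transport was represented by 4 members. BM885167.1_466, an aquaporin, read 9.21, 9.48 and 9.42 in control nodules and 7.73, 7.53 and 5.61 after nitrate, a 5.33-fold fall. A plasma membrane intrinsic protein, GMFL01-35-H16-R_405, of the same family of water channels, read 7.78, 8.10 and 7.74 and then 6.47, 6.36 and 3.46. Here the change of -2.44 rested most on the third nitrate-treated array, since the first and second were lower than the mean of the controls by less than 2. Only 2 of the nitrate-treated nodule arrays were well above background for this probe. CX709685.1_746, an ABC transporter of the multidrug resistance type, fell by at least 3.17-fold. BM527612.1_396, a mitochondrial carrier, changed by -2.02, and in roots by -0.91. CO985424.1_719, described as auxin efflux carrier component 5, which in Arabidopsis sits in the endoplasmic reticulum, read 9.41, 8.82 and 9.68 in control nodules and 7.25, 6.78 and 7.14 under nitrate. In that probe the third nitrate-treated array lay between the other two.

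The cell division list had 2 members. BE823273.1_524, described as a mitotic cyclin of the A2 type, which drives progress through DNA replication into mitosis, read 4.15, 4.57 and 4.46 in control nodules and was not well above background in any nitrate-treated nodule, a fall of at least 2.53-fold. BI968713.1_678, a microtubule-binding protein of the cell cycle, read 7.56, 7.62 and 7.71 and then 6.0, 6.01 and 4.61. The root changes of these probes were 0.62 and 0.78. The transcription factors were AW311540.1_393, described as hypothetical, at -2.42, BG507358.1_229, of the bZIP family, at -2.36 and the Myb probe at the limit. AW311540.1_393 was not well above background on any nitrate-treated nodule array, so its fall is known only as at least 1.85-fold. For BG507358.1_229 only 2 of these arrays were well above background.

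Of the members that stood alone in their lists, GMFL01-22-H09-F_556, described as lupin peroxidase 2, read 8.15, 7.41 and 7.83 in control nodules and 5.04, 5.06 and 3.5 with nitrate, a change of -3.26. Only 2 of the nitrate-treated nodule arrays were well above background for the peroxidase probe. GMFL01-43-N02-F_57, described as Dg93 of Datisca glomerata, a protein found in the nodules of that plant, read 4.69, 3.85 and 4.75 in control nodules and was not well above background under nitrate, a fall of at least 2.60-fold. BF595342.1_538, a subtilase, which is a serine protease, changed by -2.28, and BU544528.1_442, a sugar kinase of the pfkB family, by -2.32. The methyltransferases CX707389.1_761 and BE820997.1_468 changed by -2.16 and -2.05. The list of chitinases and stress proteins held CD390619.1_41, a chitinase, which breaks down the chitin of fungal walls, with a fall of at least 2.20-fold, and CX705279.1_664, a seed maturation protein, with at least 1.51-fold. Its other 2 members, GMFL01-07-M08-R_652 and CD400077.1_620, are cDNA clones from plants induced with salicylic acid, so that their place in this list reflects the source of the clone. No member fell under the lists for sulfate transport or nitrogen assimilation.

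**Figure D3:**
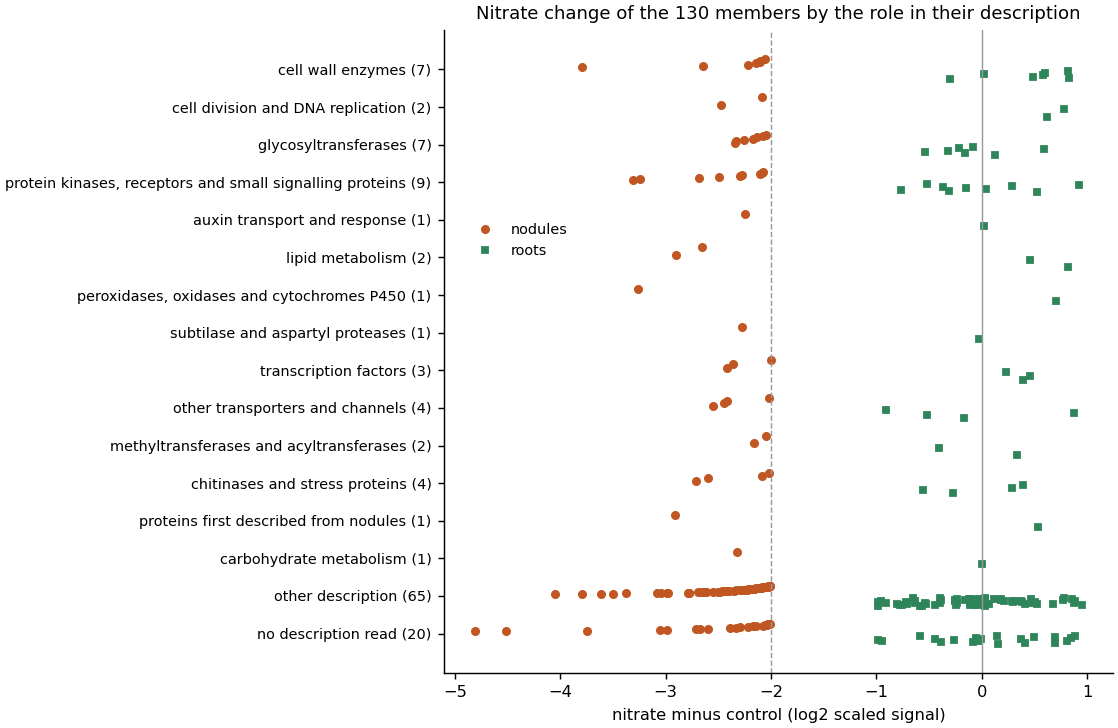
Nitrate change of the 130 members in nodules (orange circles) and roots (green squares), as log2 scaled signal, nitrate minus control, grouped by the role in their description, with the number of members in brackets. The nodule values all lie at or below the dashed limit of -2, and the root values of the 7 cell wall enzymes run from -0.31 to 0.82.

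Several members share a description, so some of them may report the same gene. Of the glycosyltransferases, 4 carry the same wording, and 12 further probes with it, which are not members, had nodule changes from -2.25 to 1.55. The Lotus genomic clone LjT34A24 matches 3 members, AW830551.1_482, GMFL01-01-K14-F_374 and GMFL01-19-J08-R_559. Their nodule changes were -2.25, -2.22 and -2.17, and their root changes 0.38, 0.30 and 0.37. The other probe with this match, BE658877.1_631, changed by -3.42 in nodules and by 1.52 in roots, outside the limit. Another Lotus clone, LjT13E04, matches BM731415.1_407 and GMFL01-22-I13-R_416, at -2.06 and -2.04, and also GMFL01-42-D05-R_414, at -2.66 in measured means and at least 2.78-fold lower. The other 3 probes with that match, which are not members, changed by -1.60 to -0.03 in nodules. Both probes matched to the Medicago clone mth2-4g10, GMFL01-44-H02-R_292 and GMFL01-15-N17-F_438, changed by -2.12 and -2.09. A shared wording does not show that probes report 1 gene, and the probe sequences were not used here.

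The rule says nothing of how the levels in nodules compare with those in roots, but it used these arrays, and it required control nodules to be read and to lie well over nitrate-treated nodules, which favours members with a high signal in control nodules. The organ differences are therefore given as a description with limma's SE, and nothing is read from the shares of members called. Without nitrate, the difference between nodules and roots was spread widely over the members, from -6.73 to 9.38 on the log2 scale with a median of 0.73. In limma's fit to the 6 control arrays, 52 members were higher in nodules (40.0%), 29 were higher in roots (22.3%) and 49 passed in neither direction. Over all probes tested, 29.9% were higher in nodules and 20.4% in roots. Over those well above background on all control nodule arrays, 30.8% were higher in nodules and 18.0% in roots. Control nodules and control roots never lay on the same slide, so organ and slide cannot be told apart in this comparison. With the slide as a random block 38 members were higher in nodules (29.2%) and 26 of 130 in roots, against 24.0% and 17.9% of all probes tested. With normexp background correction 32 were higher in nodules (24.6%) and 27 in roots (20.8%), against 20.3% and 18.3%.

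The nodule-higher members included some that were not detected in roots. CX707558.1_722, a soybean cDNA clone, read 9.41, 9.41 and 9.72 in control nodules, while no root array was well above background, so control nodules were at least 79.9-fold higher. For BG653680.1_355, BE658931.1_418 and AI938532.1_203 the same bound was 21.4-fold, 19.9-fold and 14.7-fold. In all, 17 of the 52 nodule-higher members were not read as well above background by any of the control root arrays. They entered the fit only through the nodules, where they are high, so their calls had to come out this way. AW781063.1_276, another cDNA clone, was read in both organs, at 14.14, 13.66 and 14.21 in control nodules and at 4.27, 4.44 and 5.15 in control roots, a difference of 9.38 ± 0.28 (SE, n = 3 arrays a group). Under nitrate it read 12.51, 12.27 and 10.73 in nodules, still far above the 3.66 to 4.39 of the roots. Among the described members, the aquaporin BM885167.1_466 was higher in control nodules by 5.48 ± 0.31 (SE), the Myb probe CX704817.1_812 by 4.81 ± 0.58 and the subtilase by 2.94 ± 0.40. The auxin efflux carrier was higher there by 2.69 ± 0.30 and the xyloglucan enzyme by 2.25 ± 0.32.

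The members that went against the majority had their higher signal in roots. AW598384.1_293, the leucine-rich repeat protein, read 12.81, 12.18 and 12.69 in control roots and 6.08, 5.79 and 5.61 in control nodules, a difference of -6.73 ± 0.23 (SE). BI971547.1_338, matched to a Medicago clone, differed by -6.37 ± 0.20 and CD413673.1_333, without a description, by -5.45 ± 0.33. The nodulin-like Dg93 probe was also higher in roots, by 3.09 in the means. Its root arrays read 7.5, 9.46 and 5.6 without nitrate and 8.56, 8.99 and 6.60 with it, so the spread between root samples was wide. With the slide as a random block limma's call was lost for this probe, and so were those of the cyclin A2 probe, at -1.44 ± 0.47, and the peroxidase, at 1.30 ± 0.45. The calls of the cyclin and the peroxidase were also lost with most single arrays left out. Of the 7 cell wall enzymes only the xyloglucan enzyme was called, and of the 7 glycosyltransferases 4 were called, each higher in nodules.

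**Figure D4:**
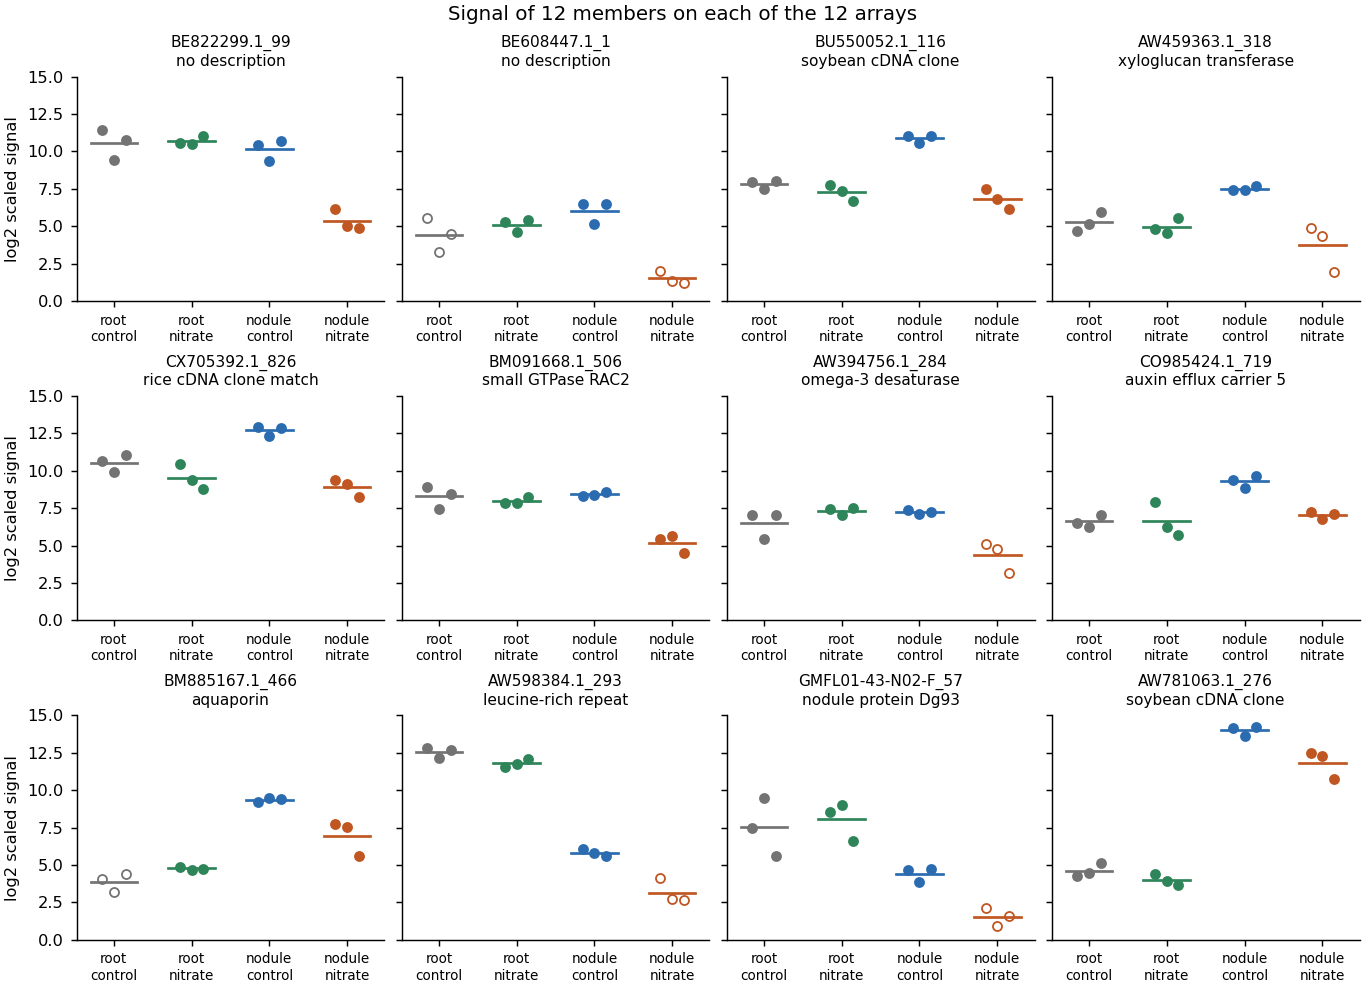
Signal of 12 members on the 12 arrays, as log2 scaled signal (y axis), by group (x axis), with 1 point per array and a bar at the mean of 3. Open points mark groups in which fewer than 3 arrays were well above background. BE822299.1_99 was at about the same level in control nodules and both root groups, AW781063.1_276 was highest in nodules with and without nitrate, and AW598384.1_293 was highest in roots.

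Under nitrate the order of the organs was different, as a fall in nodules with little change in roots must make it. The difference between nodules and roots had a median of -1.75 over the members, from -9.04 to 7.85. Of the 109 members tested in limma's fit to the 6 nitrate-treated arrays, 76 were higher in roots (69.7%) and 9 were higher in nodules (8.26%). Over all probes tested 22.2% were higher in roots and 23.6% in nodules, and over those well above background on all control nodule arrays 20.1% and 24.3%. Since the rule required low values on these same nodule arrays, nothing is read from the shares of the members. Nitrate-treated nodules and nitrate-treated roots never lay on the same slide, so organ and slide cannot be told apart here either. The 21 members not tested were well above background on all arrays of neither group. Some root-higher members were not well above background on any nitrate-treated nodule array. They entered the fit only through the roots, where they are high.

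The organ calls with and without nitrate are set side by side here only to say which members lie where. The rule lowers the nodules and holds the roots, so a move toward the roots is built in, and all 29 members that were higher in roots without nitrate were so with it. Of the 49 with no call without nitrate, 41 were higher in roots under nitrate, 5 had no call and 3 were not tested. BE822299.1_99 belonged to these 41, with a root signal 40.8-fold above that of the nitrate-treated nodules, as did the RAC2 probe, the omega-3 desaturase and the other 6 cell wall enzymes, apart from the xyloglucan enzyme. Of the 52 nodule-higher members, 19 had no call under nitrate, 18 were not tested, 6 were higher in roots and 9 remained higher in nodules. BU550052.1_116, CX705392.1_826 and the auxin efflux carrier were among the 19, for which no difference between the organs was called. The 6 were the peroxidase, the pfkB sugar kinase, a leucine-rich repeat protein AW433073.1_418, an actin-bundling protein GMFL01-27-F06-R_402, and the clones BG881625.1_433 and GMFL01-38-B16-F_406.

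The 9 that remained higher in nodules were AW781063.1_276, CX707558.1_722, BE658931.1_418, BG653680.1_355, AI938532.1_203, the aquaporin, the Myb probe, CK768775.1_194 and GMFL01-29-C07-R_220. The last is described as a soybean proline-rich protein, a kind of structural wall protein, and read 9.86, 10.10 and 10.02 in control nodules and 8.87, 8.47 and 6.31 under nitrate, against 4.51 to 5.95 in the nitrate-treated roots. CK768775.1_194, matched to a Medicago clone, was the closest of the 9 to the root level, at 1.06 above it. Of the 9, CX707558.1_722, BE658931.1_418, BG653680.1_355, AI938532.1_203 and the Myb probe were not read as well above background by any nitrate-treated root array. They entered the fit only through the nodules, where they are high, so their calls had to come out this way. Without the third nitrate-treated nodule array 15 members, in place of 9, were called higher in nodules under nitrate. The share over all probes was not counted for that fit.

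**Figure D5:**
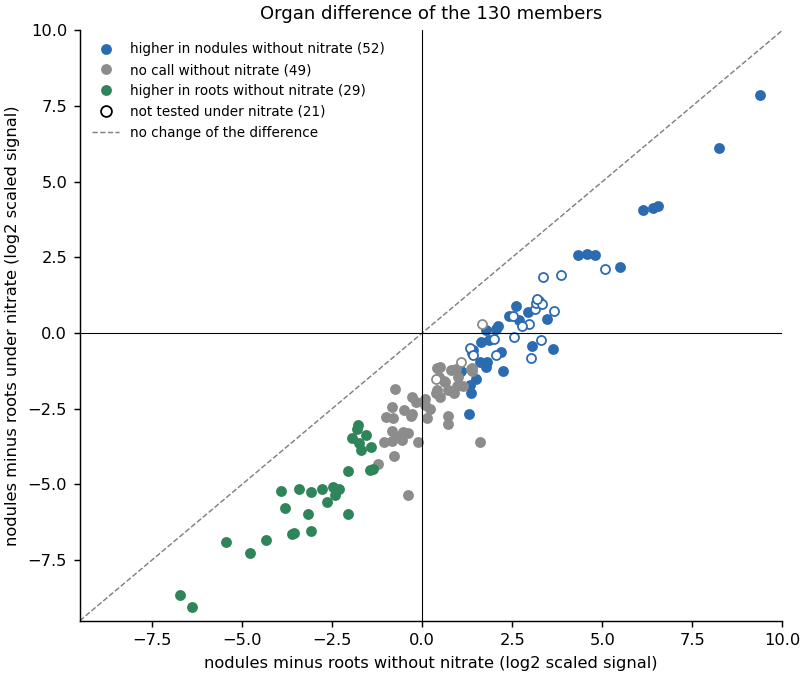
Difference between nodules and roots for each of the 130 members, as log2 scaled signal, without nitrate (x axis) and under nitrate (y axis), coloured by limma's call without nitrate. Every point lies below the dashed line of no change, which the rule requires, and 9 of the 52 nodule-higher members were also called higher in nodules under nitrate.

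The role lists can also be followed beyond the members, in the 742 probes whose descriptions were read from the study's list of probes lowered in nodules, which is part of that list. Of these, 110 were members, 585 had a nodule change above -2 and 47 reached -2 without being members. The cell wall list held 41 of the 742 probes, with 7 members and 32 that did not reach -2. The cell division list held 57, with 2 members and 53 that did not reach -2. Glycosyltransferases counted 7 members of 18 and signalling proteins 9 of 24. All 4 sulfate transport probes reached -2 in nodules and failed the rule, with 2 above 1 and 2 below -1 in roots. The study chose these probes on the nodule arrays, so only their root changes are independent of that choice. The rule, however, kept the root changes of the 110 members between -1 and 1. Members therefore could not count as above 1 or below -1 in roots, and their share differs between the lists. Over the 742 the median root change was 0.22, against 0.10 over the probes well above background on all control nodule arrays and 0.04 over all probes. In roots 90 of the 742 were above 1 and 54 below -1. Of the cell division probes 10 of 57 were above 1 and 0 below -1, with a median of 0.57, and of the cell wall probes 0 of 41 were above 1 and 2 below -1, with a median of 0.14. Methyltransferases had 4 of 9 above 1 and a median of 0.53, and the lipid list 3 of 13 and a median of 0.70. Auxin and nitrogen probes had the lowest medians, -0.76 over 8 and -0.90 over 4. The shares of all probes above 1 and below -1 in roots were not counted, so nothing is read from these counts. Differences between the lists were not tested.

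By limma, 5 of the 672 tested were raised in roots and 12 lowered, against 0.851% raised and 1.7% lowered of all probes tested. None of the cell division and cell wall probes was called in either direction. At an unadjusted p under 0.05 and a 2-fold change, 3 cell division probes were raised and 2 cell wall probes lowered, and the unpaired test of the methods called 0 after adjustment. The shares over all probes were not counted for these settings. Root samples with the same replicate number deviated together, but the methods state no pairing of them. With the replicate block limma called 58 of the 672 raised in roots and 33 lowered, among them 3 cell division probes raised and 1 cell wall probe lowered. Over all probes tested this fit called 4.23% raised and 4.33% lowered. For the members the count in roots was 0 with this block too, as it had to be. The rule kept their root changes within 2-fold, and a call needs a change above 2-fold.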

How the data were processed

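RNA of 12 samples was measured on single-colour Agilent soybean arrays. The authors deposited intensity values, the processed signals of Feature Extraction, which subtracts background within each array. Its version is 10.5.1.1 per the file headers, whereas the submitters' notes name version 9.5.1. The deposited median and local background intensities were also used, as were the flags, 0 or 1, for background and outliers. For the first control root sample the title gave the replicate number, since another field carries a different one. The series table repeats the processed signals and was not used.

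Each array was scaled to a mean of 2500 over 42748 probes and taken to log2. Across the arrays 106 outlier spots were left out of the fits. Differences were fitted with limma 3.58.1 (lmFit, eBayes) with R 4.3.3, each comparison on its own 6 arrays, for probes that every array of 1 or both groups read as well above background. A call needed a Benjamini-Hochberg adjusted p under 0.05 and a change above 2-fold. With 3 arrays against 3, an exact permutation test cannot go below p = 0.1, and the small number of arrays limits the precision. The fits were tested on simulated data. Python 3.11.15 with pandas 2.3.3 and numpy 2.4.6 made the tables. The methods call the samples of a group biological replications.

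The members, the role lists and the tests were chosen with earlier results of these data known. Named probes were the 5 with the largest fall, up to 4 per role list, probes that share a description, those at the threshold, those at the ends of the range of levels and up to 3 whose organ difference went against the majority; others are marked. Deviations of samples with the same number correlated at 0.29, 0.43 and 0.63 in roots and at 0.14, 0.03 and 0.13 in nodules. The methods state no pairing, and whether the root samples were paired was not tested. Alternatives were 75th percentile and quantile scaling, normexp (offset 50), no filter, the replicate number or slide as a block, all 12 arrays in one fit, the unpaired test of the methods and each array left out.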

Additional observations from a re-analysis of the deposited data

How the results depend on the processing

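Background correction and single arrays moved several counts. With normexp on the median signal the rule gave 32 probes, 28 of them among the 130, the median nodule change of the members was -1.48, and limma called 78 members lowered in nodules. Under that setting 32 members were higher in nodules without nitrate and 4 under nitrate. Leaving out single arrays, the rule gave 64 to 211 probes, the median change ran from -2.48 to -1.92, and 114 to 129 members were called lowered in nodules. Leaving out arrays also gave 47 to 58 members higher in nodules and 27 to 40 higher in roots without nitrate, and 7 to 15 and 70 to 79 under nitrate. The lowest number of probes and the 15 came without the third nitrate-treated nodule array, and the 40 without the second control root array. Members called in roots numbered 0, as the root limit of the rule requires, and 0 to 4 with arrays left out. The 75th percentile, quantile and normexp settings each called 1, CX706335.1_589. With 75th percentile scaling the rule gave 111 probes and with quantile normalization 99, of which 108 and 96 were among the 130.

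With the replicate block, 58 members were higher in nodules and 29 in roots without nitrate, 10 and 75 under nitrate, and 128 were called lowered in nodules. Same-numbered nodules and roots did not deviate together, with correlations from -0.25 to 0.14. For the organ differences of named members, the slide block ended 6 calls and the replicate block added 6. No alternative that was run turned the direction of these results. The causes of these shifts were not tested. For most of these settings no share over all probes was counted, so the counts of members called show only how far they moved. Signals near background, in 33 members under nitrate, limit the size of the fall.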
